A study of Mus musculus with 16 samples.

Results

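The lysosomal genes described here are 49 genes for the enzymes of the lysosome, its membrane proteins, its proton pump and 2 transcription factors that act on lysosomal genes. They were chosen by gene symbol, as a list of known lysosomal genes, and are 49 of the 35275 genes in the deposited count table. All 49 are among the 13080 genes that passed the filter on low counts. RNA sequencing was done on polyadenylated RNA of macrophages grown from tibial bone marrow of C57BL/6 mice, in 16 libraries that fall into 4 groups of 4. The groups are KO macrophages with TGF-β1, KO macrophages without it, fl/fl macrophages with TGF-β1 and fl/fl macrophages without it. KO mice carried CAGGCre-ER, a tamoxifen-inducible Cre recombinase under the CAGG promoter, together with floxed Smad7 alleles. The fl/fl mice were littermates with the floxed Smad7 alleles alone. Both genotypes received tamoxifen at 20 mg/kg for 5 days at 1 month of age, and marrow was taken 2 weeks later. The CAGG promoter is active in most tissues, so deletion in the mouse was not restricted to macrophages. All cultures had 15% serum with CSF-1, the growth factor of macrophages, at 12 ng/ml for 24 hours and then 120 ng/ml for 48 hours. Serum was then withheld for about 12 hours, and TGF-β1 was added for 4 hours at 10 ng/ml or left out. Nothing in the labels says that the 4 replicates of a group came from separate animals, so the p-values measure the spread between these libraries, which may be technical.

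Lysosomes break down proteins, sugars, sulfated glycans and lipids that arrive by endocytosis, phagocytosis and autophagy, and macrophages are rich in them. Their hydrolases work at acid pH, which the vacuolar ATPase maintains: its V1 sector splits ATP in the cytosol and its V0 sector carries protons across the membrane. TFEB and TFE3 are transcription factors of the MiT family that bind E-boxes in the promoters of many lysosomal genes and are controlled largely by where in the cell they reside. Smad7 is an inhibitory Smad that restrains TGF-β receptor signalling. The comparisons ask whether the lysosomal genes respond to 4 hours of TGF-β1 and whether loss of Smad7 changes their level or that response.

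Promoter windows were available for 43 of the 49 genes, each reaching 250 bases before to 50 bases after the gene start in RefSeq (GRCm38.p6). The E-box CACGTG, which reads the same on both strands, stood in a window of 14 of these 43 genes (32.6%). Among all tested genes with a window it stood in 1101 of 9373 (11.7%). The longer form TCACGTG, searched on both strands and containing the E-box, stood in 13 of 43 (30.2%), against 659 of 9373 tested genes (7.03%). The 14 genes held 22 E-boxes, 8 of them with the longer form on both strands. One E-box of each of the 14 genes is printed because these are the letters that MiT family factors are known to bind. Capitals mark the E-box, and each stretch is 5′ to 3′ on the gene's own strand.
Lamp1 (chr8:13159088-13159117, plus strand): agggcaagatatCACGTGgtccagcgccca
Ctsd (chr7:142387908-142387937, minus strand): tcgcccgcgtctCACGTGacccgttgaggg
Ctsa (chr2:164833749-164833778, plus strand): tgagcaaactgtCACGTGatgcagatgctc
Mcoln1 (chr8:3500462-3500491, plus strand): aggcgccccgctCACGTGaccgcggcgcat
Atp6v0d1 (chr8:105566050-105566079, minus strand): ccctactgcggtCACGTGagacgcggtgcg
Atp6v1a (chr16:44139373-44139402, minus strand): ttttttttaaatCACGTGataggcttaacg
Gla (chrX:134601182-134601211, minus strand): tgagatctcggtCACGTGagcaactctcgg
Glb1 (chr9:114401018-114401047, plus strand): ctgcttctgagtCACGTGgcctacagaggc
Naglu (chr11:101070009-101070038, plus strand): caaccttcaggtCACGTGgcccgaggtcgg
Gaa (chr11:119267811-119267840, plus strand): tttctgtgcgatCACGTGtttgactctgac
Lgmn (chr12:102439124-102439153, minus strand): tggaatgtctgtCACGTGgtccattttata
Arsa (chr15:89477423-89477452, minus strand): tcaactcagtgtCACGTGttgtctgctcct
Atp6v0b (chr4:117887348-117887377, minus strand): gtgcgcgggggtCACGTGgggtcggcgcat
Ctsl (chr13:64370739-64370768, minus strand): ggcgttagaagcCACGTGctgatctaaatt

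The E-boxes of these genes stood between 245 bases before and 5 bases after the start, most of them within 100 bases of it. Lamp1, a main glycoprotein of the lysosomal membrane, had 4 E-boxes, more than any other of the 14 genes. Its whole window is shown because the 4 lie close together, with capitals again marking each E-box. The window of Scarb2 is shown beside it because Scarb2 responded most to TGF-β1, and it holds no E-box. That says only that these letters are not in this window.
Lamp1 promoter (chr8:13158911-13159210, plus strand): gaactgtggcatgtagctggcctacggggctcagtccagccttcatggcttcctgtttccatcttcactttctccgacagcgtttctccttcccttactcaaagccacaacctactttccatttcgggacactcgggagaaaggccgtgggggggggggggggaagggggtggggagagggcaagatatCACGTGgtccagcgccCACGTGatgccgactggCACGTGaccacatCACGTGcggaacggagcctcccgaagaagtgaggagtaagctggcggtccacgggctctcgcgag
Scarb2 promoter (chr5:92505608-92505907, minus strand): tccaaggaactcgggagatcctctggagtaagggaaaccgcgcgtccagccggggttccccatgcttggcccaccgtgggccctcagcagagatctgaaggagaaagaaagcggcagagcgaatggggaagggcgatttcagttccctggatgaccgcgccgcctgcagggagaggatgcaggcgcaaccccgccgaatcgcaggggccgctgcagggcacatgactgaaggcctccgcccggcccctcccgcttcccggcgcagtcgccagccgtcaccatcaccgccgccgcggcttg

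**Figure D1:**
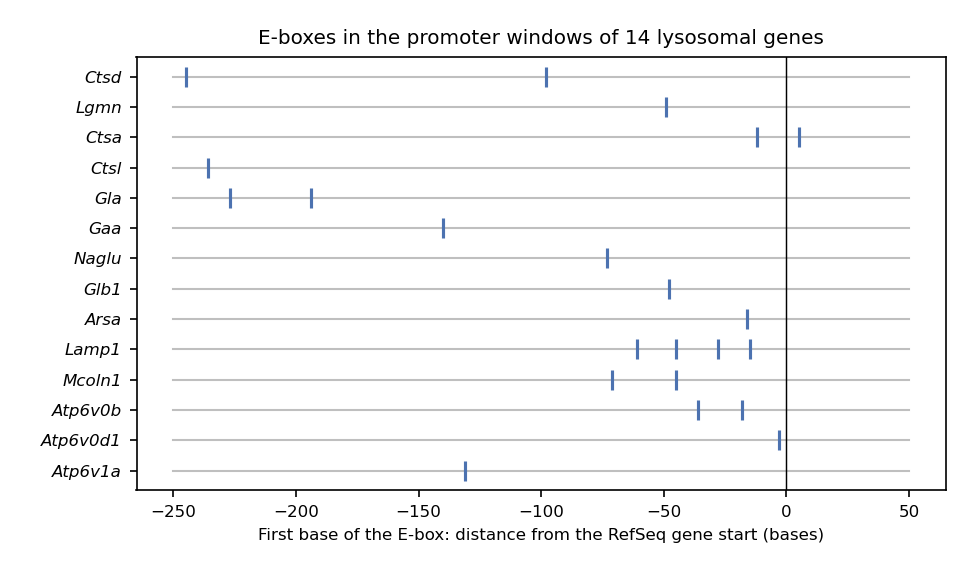
Position of each E-box in the promoter windows of 14 lysosomal genes. The x axis gives the distance in bases of the first base of the E-box from the RefSeq gene start, grey lines span the window of 250 bases before to 50 bases after it, and blue ticks are E-boxes, of which Lamp1 has 4.

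Library totals ran from 16865591 to 23741079 counts. The library labelled KO untreated replicate 1 went against its label. Pmepa1, a gene that TGF-β induces, was at 319.9 CPM there, against 1.70 to 2.73 CPM in the other KO untreated libraries, so the counts of called genes, and the KO values that it moves most, are given with and without that library. CPM are counts scaled to a common library total after TMM adjustment. Smad7 itself was at 10.3 to 19.7 CPM in KO TGF-β1 libraries, 5.87 CPM in KO untreated replicate 1, 1.28 to 2.00 CPM in the other KO untreated libraries, 37.3 to 58.3 CPM in fl/fl TGF-β1 libraries and 3.89 to 6.03 CPM in fl/fl untreated libraries. The library labelled fl/fl TGF-β1 replicate 4 stood apart from its group, with 14915 genes detected and 0.575% of counts from mitochondrial genes. KO untreated replicate 2 had the lowest CPM of its group for 31 of the 49 lysosomal genes. Macrophage markers were high in every library, with a summed level of 15745 to 23794 CPM over the 8 markers found, of 9 listed. Megakaryocyte markers summed to 36.4 to 144 CPM, endothelial markers to 5.86 to 22.2 CPM, neutrophil markers to 4.22 to 15.9 CPM, dendritic markers to 1.78 to 6.00 CPM and B cell markers to 1.23 to 3.89 CPM. The lists for T and NK cells, mast cells, stromal cells and erythroid cells summed to less than 3 CPM in every library. The part of these cell types in the results was not tested.

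Lysosomal genes were among the most abundant transcripts of these macrophages. Together they took 5.79% ± 0.251 of all counts in KO TGF-β1, 5.57% ± 0.469 in KO untreated, 5.68% ± 0.642 in fl/fl TGF-β1 and 5.70% ± 0.185 in fl/fl untreated libraries (SD, n = 4 each). Levels between genes are given as FPKM, which scale counts by gene length and library total. Ctsd, the aspartic protease cathepsin D, averaged 5349 ± 982 FPKM (SD over 16 libraries) and ranked 6 among the 35275 genes. Psap, the precursor of the saposins that present lipids to enzymes, averaged 3555 ± 343 FPKM and ranked 8. Ctsb, the cysteine protease cathepsin B, averaged 2777 ± 259 FPKM and ranked 9. These 3 genes held 55.9% of the summed FPKM of the 49.

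Progranulin (Grn), a secreted and lysosomal glycoprotein, averaged 1179 ± 106 FPKM. Lamp1 averaged 1037 ± 73.0 FPKM. At the low end stood the calcium channel Mcoln1 with 19.9 ± 2.66, arylsulfatase A (Arsa) with 13.9 ± 2.07 and the iduronidase Idua with 13.1 ± 1.22 FPKM. Idua overlaps Dgkq on the other strand, which had 60.6% as many counts. Since the strand used in counting is not stated, its level is uncertain, as are those of Ppt1 and Ctsa, which overlap Cap1 and Pltp. Glb1 overlaps Tmppe on the same strand, so the reads of those genes may be split in either case.

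**Figure D2:**
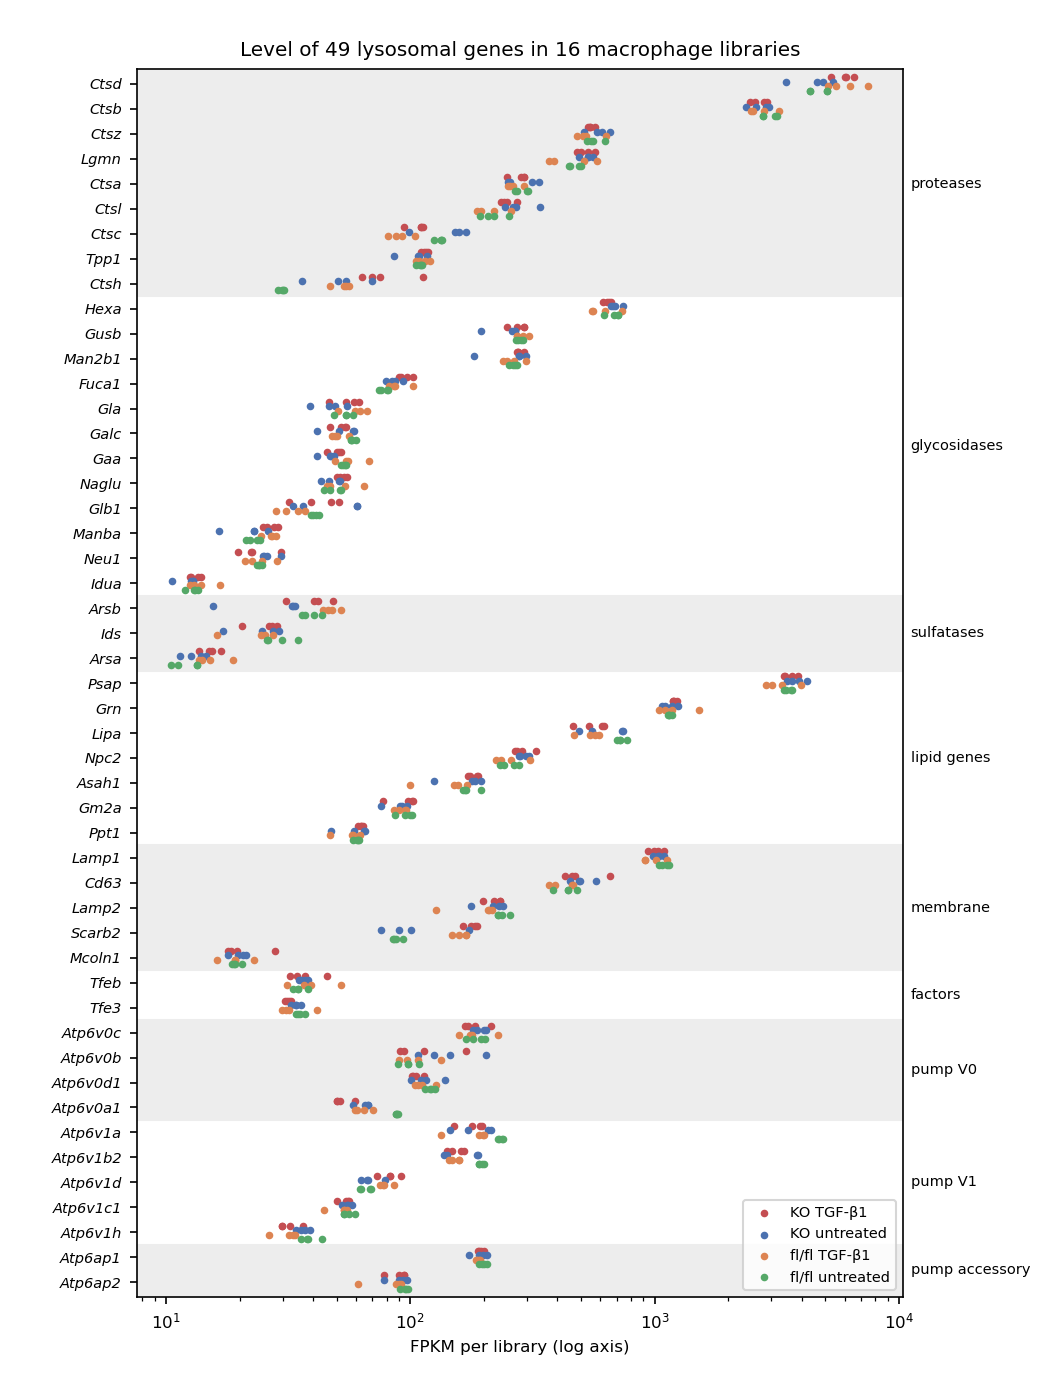
Level of the 49 lysosomal genes in each of the 16 libraries, as FPKM on a log axis, ordered by role and by mean level; each point is 1 library. Ctsd, Psap and Ctsb stand above the rest, and in most genes the 4 groups lie within a narrow band, with the group means of Ctsh and Scarb2 the widest apart in ratio.

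In fl/fl macrophages, 4 hours of TGF-β1 changed 6 of the 49 lysosomal genes past the threshold of an adjusted p of 0.05 (edgeR quasi-likelihood test, Benjamini-Hochberg over 13080 genes). Scarb2, Ctsh, Arsa and Atp6v1d rose, and Ctsc and Atp6v0a1 fell. That is 12.2% of the lysosomal genes, beside 15.5% of all tested genes (7.87% higher and 7.61% lower). limma on log2(FPKM + 1), scaled by library total and not by TMM, called 2 higher and 5 lower, with its share of all tested genes not given here. In edgeR the median log2 fold change of the 49 was -0.0035, beside -0.013 over all tested genes. The log2 fold change lay within 0.5 of 0 for 47 of the 49, beside 74.4% of all tested genes. For the same 47, all but Ctsh and Scarb2, the fold change with 2 standard errors on either side stayed under 2-fold in both directions. Standard errors of the 49 ran from 0.088 to 0.20, with a median of 0.12, beside 0.18 over all tested genes. The shares called therefore compare sets of unlike precision.

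In KO macrophages, TGF-β1 changed 2 of the 49: Scarb2 and Ctsh rose and none fell, which is 4.08%, beside 5.17% of all tested genes (2.19% higher and 2.97% lower). The median log2 fold change of the 49 in KO was 0.02, beside -0.03 over all tested genes, and 30 of the 49 were positive. Without KO untreated replicate 1, 6 of the 49 (12.2%) changed in KO macrophages, beside 15.2% of all tested genes (8.33% higher and 6.88% lower). Scarb2, Ctsh, Ctsd, Manba and Atp6v1d rose in that fit and Ctsc fell. In the same fit fl/fl macrophages had 8 called genes (16.3%), beside 18.1% of all tested genes (8.91% higher and 9.23% lower), with Ctsd and Fuca1 added to the 4 that rose. In each of these 4 counts the share of lysosomal genes called was near that of all tested genes. Libraries of the 2 genotypes are separate, and 5 genes were called in both genotypes without that library, in the same direction each: Scarb2, Ctsh, Ctsd and Atp6v1d higher and Ctsc lower. How many of all tested genes were called in both was not counted, so the 5 are a description only. In that fit the responses of the 2 genotypes had a Pearson correlation of 0.793 over all tested genes and 0.833 over the 49.

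**Figure D3:**
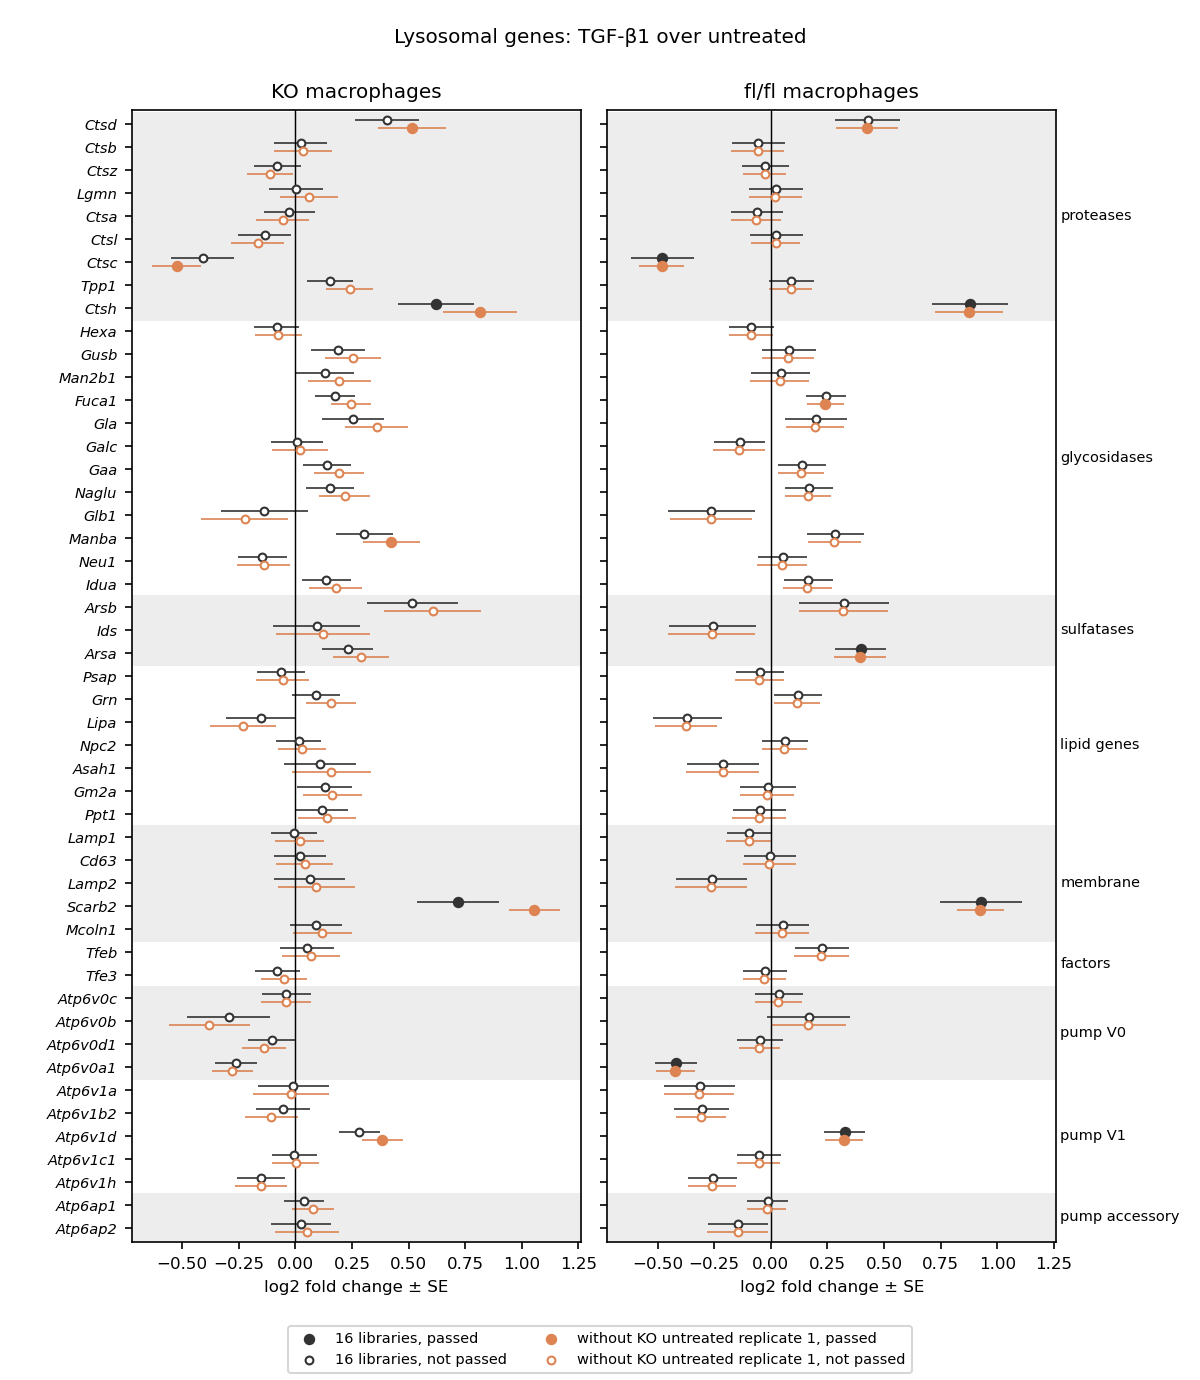
Log2 fold change ± SE, TGF-β1 over untreated, of the 49 lysosomal genes in KO (left) and fl/fl (right) macrophages, from edgeR on 16 libraries (black) and without KO untreated replicate 1 (orange); filled points passed the adjusted p of 0.05. Most points lie within 0.5 of 0, with Scarb2 and Ctsh to the right in both genotypes and Ctsc and Atp6v0a1 to the left.

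Among 9 proteases, Ctsh rose and Ctsc fell in fl/fl macrophages. Ctsh, cathepsin H, is a cysteine protease with aminopeptidase activity (ENSMUSG00000032359, mm10 chromosome 9, 90054152 to 90076089). It had 135, 156, 157 and 151 CPM in fl/fl TGF-β1 libraries 1 to 4, against 83.5, 78.6, 83.0 and 81.4 CPM in fl/fl untreated libraries. The 2 groups did not overlap. Its log2 fold change was 0.88 ± 0.17 (edgeR adjusted p = 0.00224). In KO macrophages Ctsh had 285, 173, 212 and 196 CPM with TGF-β1, against 187, 94.1, 146 and 136 CPM untreated. Here the groups overlapped through untreated replicate 1, the highest of its group. The log2 fold change in KO was 0.62 ± 0.17 (edgeR adjusted p = 0.0415), and 0.81 ± 0.16 without that library (edgeR adjusted p = 0.0014). The KO call was lost when any 1 of the other libraries was left out, except fl/fl TGF-β1 replicate 4, with adjusted p up to 0.133.

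Ctsc, cathepsin C or dipeptidyl peptidase I, activates serine proteases of granules by trimming them (ENSMUSG00000030560, mm10 chromosome 7, 88278085 to 88310888). In fl/fl macrophages it had 312, 297, 343 and 263 CPM with TGF-β1, against 434, 401, 429.8 and 428 CPM untreated. Each treated library lay below each untreated one, and Ctsc fell by 0.48 ± 0.14 on the log2 scale (edgeR adjusted p = 0.0258). That call was lost under 5 of the 23 alternatives, among them leaving out fl/fl TGF-β1 replicate 4, with edgeR adjusted p up to 0.0723. KO macrophages had 327, 299.6, 369 and 366 CPM with TGF-β1, against 309.9, 466, 499 and 532 CPM untreated. Untreated replicate 1, at the level of the treated libraries, made these overlap. The KO value was -0.41 ± 0.14 (edgeR adjusted p = 0.102), and -0.52 ± 0.11 without it (edgeR adjusted p = 0.00176).

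Ctsd was the most abundant of the genes that came near the threshold (ENSMUSG00000007891, mm10 chromosome 7, 142371148 to 142388038). It had 11568, 12512, 13737 and 16136 CPM in fl/fl TGF-β1 libraries, against 9309, 9223, 10758 and 10827 CPM in fl/fl untreated ones. The groups did not overlap, and the log2 fold change was 0.43 ± 0.14 (edgeR adjusted p = 0.0513), just short of the threshold. With replicate number as a block within genotype Ctsd passed (edgeR adjusted p = 0.0186). It passed in fl/fl under 6 of the 23 alternatives. With 1 library left out, its fl/fl value ran from 0.33 to 0.49 (edgeR adjusted p from 0.0158 to 0.165). In KO macrophages Ctsd had 11884, 11114, 14245 and 13217 CPM with TGF-β1, against 11133, 7027, 10213 and 9733 CPM untreated. Only untreated replicate 1 reached into the treated range. Without it Ctsd passed the threshold in both genotypes, with 0.51 ± 0.15 in KO (edgeR adjusted p = 0.0254) and 0.42 ± 0.14 in fl/fl (edgeR adjusted p = 0.0407). The other 6 proteases, Ctsa, Ctsb, Ctsl, Ctsz, Lgmn and Tpp1, had log2 fold changes between -0.14 and 0.15 in KO and between -0.06 and 0.09 in fl/fl, none past the threshold in either fit. Without KO untreated replicate 1 the highest of them, Tpp1, was at 0.24 in KO.

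No glycosidase of 12 passed the threshold with 16 libraries in either genotype, although 9 of the 12 had a positive log2 fold change in each, with medians of 0.14 in KO and 0.11 in fl/fl. The medians over all tested genes were -0.03 in KO and -0.01 in fl/fl. Whether the 12 moved as a set was not tested. Manba, the β-mannosidase, had 105, 109.7, 102 and 90.9 CPM in fl/fl TGF-β1 libraries, against 78.5, 81.1, 88.3 and 86.8 CPM in fl/fl untreated ones. In KO libraries it had 87.6, 91.4, 108 and 105 CPM with TGF-β1, against 94.1, 57.6, 82.7 and 82.7 CPM untreated. The fl/fl groups did not overlap, while the KO groups did, by untreated replicate 1. Without that library Manba rose in KO, by 0.42 ± 0.13 on the log2 scale (edgeR adjusted p = 0.0282), while fl/fl stayed at 0.28 ± 0.12 (edgeR adjusted p = 0.112).

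Fuca1, the α-fucosidase, had 229, 219, 224 and 261 CPM in fl/fl TGF-β1 libraries, against 193, 189, 203 and 203 CPM in fl/fl untreated ones. KO libraries held 238, 230.0, 250.4 and 235 CPM with TGF-β1, against 229, 203, 216 and 197 CPM untreated. All treated libraries lay above all untreated libraries of their genotype. With 16 libraries Fuca1 had 0.24 ± 0.09 in fl/fl (edgeR adjusted p = 0.0703). It passed there without KO untreated replicate 1, with 0.24 ± 0.08 (edgeR adjusted p = 0.0496), and in DESeq2 (adjusted p = 0.0116). These were the only 2 of 23 alternatives in which Fuca1 passed in fl/fl. With 1 library left out, its fl/fl value ran from 0.19 to 0.27 (edgeR adjusted p up to 0.179). In KO it had 0.24 ± 0.09 without that library (edgeR adjusted p = 0.0752). The remaining 10, Hexa, Gaa, Galc, Gla, Glb1, Gusb, Idua, Man2b1, Naglu and Neu1, lay between -0.15 (Neu1, the sialidase) and 0.26 (Gla, an α-galactosidase) in KO, and without KO untreated replicate 1 between -0.22 (Glb1) and 0.36 (Gla). In fl/fl they lay between -0.26 (Glb1, a β-galactosidase) and 0.20 (Gla).

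Of the 3 sulfatases, Arsa, which removes sulfate from sulfatide, rose in fl/fl macrophages (ENSMUSG00000022620, mm10 chromosome 15, 89472476 to 89477425). It had 51.6, 50.6, 53.9 and 66.3 CPM in fl/fl TGF-β1 libraries, against 37.0, 39.0, 46.3 and 46.5 CPM in fl/fl untreated ones. The highest value is in replicate 4, the library that stood apart, and the groups did not overlap. The log2 fold change was 0.40 ± 0.11 (edgeR adjusted p = 0.0242), and the call was lost without that library (edgeR adjusted p = 0.0715, between 0.00928 and 0.0993 over all its alternatives). In KO Arsa had 53.8, 53.2, 53.4 and 49.1 CPM with TGF-β1, against 47.5, 37.8, 49.9 and 43.4 CPM untreated, and a log2 fold change of 0.23 ± 0.11 (edgeR adjusted p = 0.309). Arsb, which removes sulfate from dermatan and chondroitin sulfate, had 0.52 ± 0.20 in KO and 0.32 ± 0.20 in fl/fl, and Ids, the iduronate sulfatase, had 0.09 ± 0.19 in KO and -0.26 ± 0.19 in fl/fl, none past the threshold.

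None of the 7 lipid enzymes, activators and carriers passed the threshold in either genotype or fit. The closest was Lipa, the acid lipase that frees cholesterol from its esters. It had 1853, 1804, 1646 and 1399.5 CPM in fl/fl TGF-β1 libraries, against 2302, 2141, 2082 and 2132 CPM in fl/fl untreated ones. The groups did not overlap, and the log2 fold change was -0.37 ± 0.15 (edgeR adjusted p = 0.119). With replicate number as a block within genotype Lipa passed (edgeR adjusted p = 0.0196). It passed in fl/fl under 3 of the 23 alternatives. With 1 library left out, its fl/fl value ran from -0.42 to -0.29 (edgeR adjusted p from 0.0714 to 0.284). In KO the log2 fold change was -0.15 ± 0.15 (edgeR adjusted p = 0.727), or -0.23 ± 0.15 without KO untreated replicate 1 (edgeR adjusted p = 0.39). Psap had -0.06 ± 0.11 in KO and -0.05 ± 0.11 in fl/fl, and Grn had 0.09 ± 0.11 in KO and 0.12 ± 0.11 in fl/fl. The acid ceramidase Asah1, the ganglioside activator Gm2a, the cholesterol carrier Npc2 and the thioesterase Ppt1 lay between 0.01 and 0.13 in KO and between -0.21 and 0.06 in fl/fl.

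Scarb2 was the lysosomal gene with the largest response among the 49 in both genotypes. It encodes LIMP-2, a membrane protein that carries β-glucocerebrosidase to the lysosome (ENSMUSG00000029426, mm10 chromosome 5, 92443873 to 92505608). Scarb2 had 375, 357, 366 and 315 CPM in fl/fl TGF-β1 libraries, against 183, 184, 196 and 179 CPM in fl/fl untreated ones. No treated library came near the untreated ones. The log2 fold change was 0.93 ± 0.18, or 1.90-fold (edgeR adjusted p = 0.00251).

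In KO macrophages Scarb2 had 366, 344, 397 and 384 CPM with TGF-β1, against 357, 152, 186 and 209.9 CPM untreated. Untreated replicate 1 lay among the treated libraries and the other 3 lay far below. The log2 fold change in KO was 0.72 ± 0.18 (edgeR adjusted p = 0.032). Without that library it was 1.06 ± 0.11, or 2.08-fold (edgeR adjusted p = 2.01e-06). The KO call was lost when any 1 KO TGF-β1 library, any other KO untreated library or fl/fl untreated replicate 2 was left out. The adjusted p of edgeR then reached up to 0.128. The other membrane proteins did not pass. Lamp1 and Lamp2, the main glycoproteins of the membrane, had -0.01 ± 0.10 and 0.06 ± 0.16 in KO and -0.09 ± 0.10 and -0.26 ± 0.16 in fl/fl. Lamp2 was at -0.10 in fl/fl without TGF-β1 replicate 4, its lowest library. The tetraspanin Cd63 had 0.02 ± 0.12 in KO and -0.0035 ± 0.12 in fl/fl. Mcoln1, which releases calcium from lysosomes, had 41.7, 49.8, 47.9 and 56.6 CPM in fl/fl TGF-β1 libraries, against 46.1, 46.2, 46.8 and 49.9 CPM untreated, a log2 fold change of 0.05 ± 0.12. In KO libraries it had 63.1, 43.5, 49.1 and 46.4 CPM with TGF-β1, against 47.2, 48.2, 51.0 and 43.2 CPM untreated, a log2 fold change of 0.09 ± 0.12. The groups overlapped in both genotypes.

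**Figure D4:**
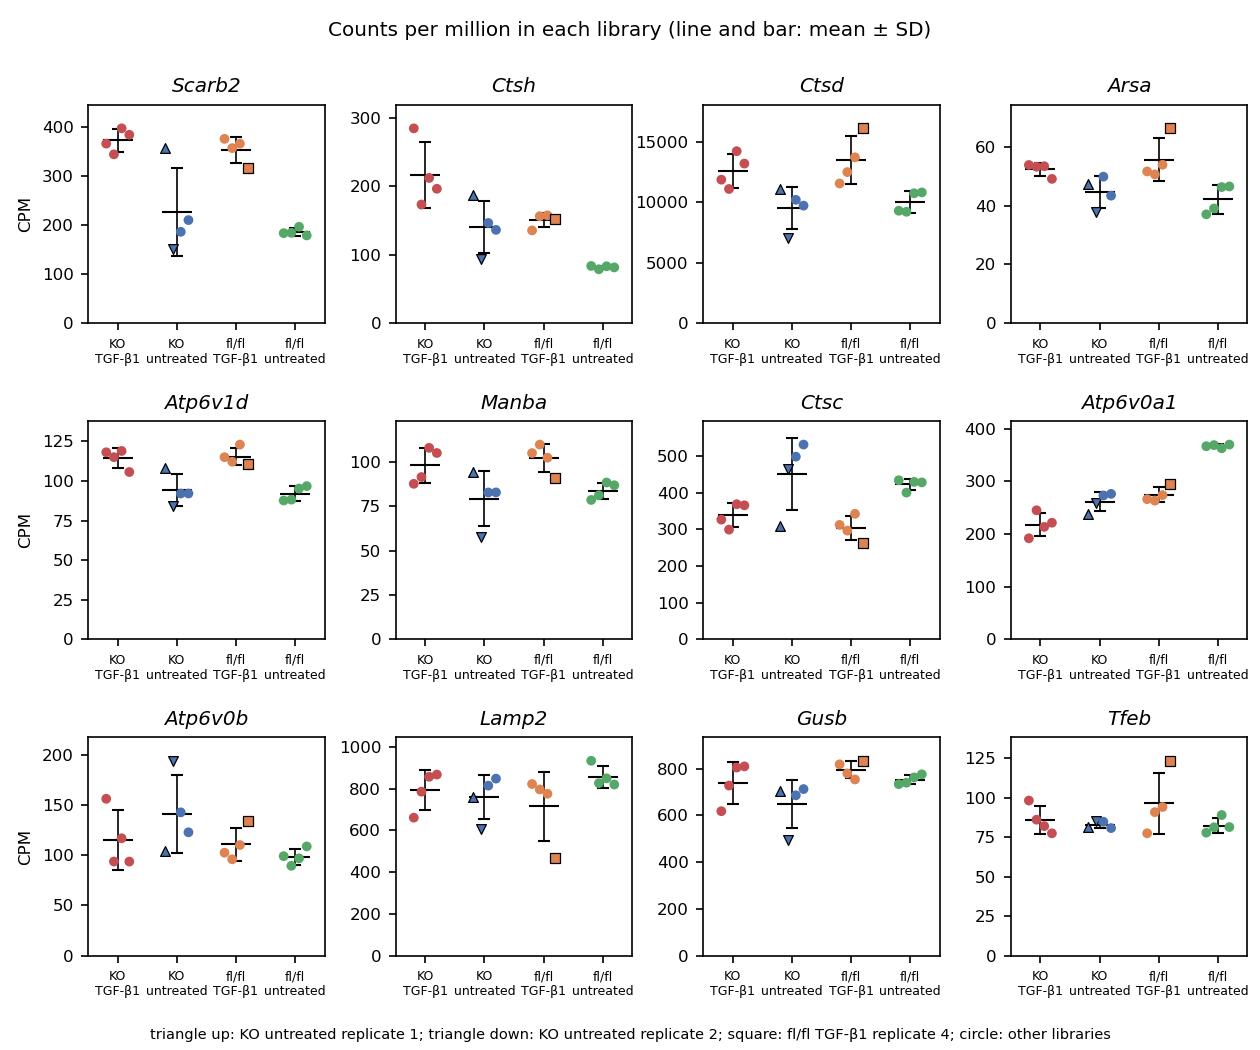
Level of 12 lysosomal genes in each library as CPM, with the mean ± SD of the group (n = 4), the y axis from 0. In Scarb2, Ctsc and Atp6v1d the library KO untreated replicate 1 (upward triangle) lies with the KO TGF-β1 libraries, and Lamp2 is low in fl/fl TGF-β1 replicate 4 (square).

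Neither transcription factor passed the threshold in any comparison. Tfeb had 77.6, 91.0, 94.2 and 124 CPM in fl/fl TGF-β1 libraries, against 77.9, 81.4, 89.1 and 81.5 CPM in fl/fl untreated ones. In KO libraries it had 98.3, 86.2, 82.1 and 77.5 CPM with TGF-β1, against 81.3, 85.4, 84.9 and 80.8 CPM untreated. The groups overlapped, with log2 fold changes of 0.05 ± 0.12 in KO (edgeR adjusted p = 0.922) and 0.23 ± 0.12 in fl/fl (edgeR adjusted p = 0.23). Without fl/fl TGF-β1 replicate 4, the highest of its group, the fl/fl value of Tfeb was 0.09. Tfe3 averaged 219.6 ± 31.3 CPM in fl/fl TGF-β1 and 223 ± 8.61 CPM in fl/fl untreated libraries (SD, n = 4 each). Its means in KO were 199 ± 8.75 CPM with TGF-β1 and 209.8 ± 9.17 CPM untreated (SD, n = 4 each). These are transcript levels and say nothing of where the proteins were.

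The 14 genes with an E-box are set beside the others as a description, with no test. In fl/fl macrophages 1 of the 14 rose with TGF-β1 (Arsa) and none fell, with a median log2 fold change of 0.04, and 9 of the 14 were positive. Of the 29 genes with a window and no E-box, 2 rose and 2 fell, with a median of -0.0035. The 6 genes without a window were Asah1, Atp6v1b2, Atp6v1c1, Atp6v1h, Ctsb and Ctsh, of which only Ctsh was called, higher in both genotypes. With KO untreated replicate 1 left out, 2 of the 14 rose in fl/fl and none fell, and of the 29, 3 rose and 2 fell. In KO macrophages none of the 14 and 1 of the 29 (Scarb2) rose and none fell, with medians of -0.0014 for the 14 and 0.05 for the 29. Without KO untreated replicate 1, 1 of the 14 (Ctsd) rose in KO and none fell, with a median of 0.04, and of the 29, 3 rose (Manba, Scarb2 and Atp6v1d) and 1 fell (Ctsc), with a median of 0.08. Over all tested genes the shares called were 15.5% in fl/fl and 5.17% in KO, or 18.1% and 15.2% without that library.

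Among the 11 genes of the proton pump 1 rose (Atp6v1d) and 1 fell (Atp6v0a1) in fl/fl macrophages. Over all tested genes 7.87% were called higher and 7.61% lower in fl/fl, so 1 of 11 in each direction is near that background. Atp6v0a1 encodes the a1 isoform of the subunit that lines the proton path in V0 (ENSMUSG00000019302, mm10 chromosome 11, 101009452 to 101063719). It had 266, 264, 274 and 295 CPM in fl/fl TGF-β1 libraries, against 367, 369, 363 and 370.0 CPM in fl/fl untreated ones. The untreated libraries lay within a few CPM of each other and well above all treated ones. Atp6v0a1 fell by 0.42 ± 0.09 on the log2 scale (edgeR adjusted p = 0.00488). KO macrophages had 192, 245, 214 and 222 CPM with TGF-β1, against 237, 259, 273 and 276 CPM untreated, a log2 fold change of -0.26 ± 0.09 (edgeR adjusted p = 0.115), and of -0.28 ± 0.09 without KO untreated replicate 1 (edgeR adjusted p = 0.0508).

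Atp6v1d encodes subunit D of the central rotor of V1 (ENSMUSG00000021114, mm10 chromosome 12, 78842989 to 78861638). It had 115, 112, 123 and 111 CPM in fl/fl TGF-β1 libraries, against 87.7, 88.2, 95.2 and 96.8 CPM in fl/fl untreated ones. In KO libraries it had 118, 115, 119 and 106 CPM with TGF-β1, against 108, 84.1, 92.1 and 92.1 CPM untreated. The fl/fl groups did not overlap and the KO groups overlapped through untreated replicate 1. The log2 fold change was 0.28 ± 0.09 in KO (edgeR adjusted p = 0.0802) and 0.33 ± 0.09 in fl/fl (edgeR adjusted p = 0.0202). Without that library the KO value was 0.38 ± 0.09 (edgeR adjusted p = 0.00533).

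Subunits A and B form the head of V1 that splits ATP, and their genes Atp6v1a and Atp6v1b2 had lower levels with TGF-β1 in fl/fl macrophages without passing. Atp6v1b2 averaged 446 ± 10.9 CPM in fl/fl TGF-β1 and 551 ± 12.0 CPM in fl/fl untreated libraries (SD, n = 4 each), with no overlap and a log2 fold change of -0.31 ± 0.12 (edgeR adjusted p = 0.0999, or 0.0351 with replicate number as a block within genotype). Atp6v1a had 896, 892, 829 and 574 CPM in fl/fl TGF-β1 libraries, against 979, 978, 1002 and 1009 CPM in fl/fl untreated ones, a log2 fold change of -0.31 ± 0.16 (edgeR adjusted p = 0.207). Treated replicate 4, the library that stood apart, was by far the lowest, and without it the value was -0.19. In KO the values were -0.06 ± 0.12 for Atp6v1b2 (-0.11 without KO untreated replicate 1) and -0.01 ± 0.16 for Atp6v1a. The remaining 7 pump genes, Atp6v0b, Atp6v0c, Atp6v0d1, Atp6v1c1, Atp6v1h and the accessory Atp6ap1 and Atp6ap2, ranged between -0.29 and 0.04 in KO and between -0.26 and 0.17 in fl/fl. Summed over the 11 genes, the pump took 0.311% ± 0.0077 of counts in fl/fl TGF-β1 and 0.362% ± 0.0097 in fl/fl untreated libraries (SD, n = 4 each). In KO libraries it took 0.310% ± 0.0074 with TGF-β1 and 0.326% ± 0.025 untreated (SD, n = 4 each).

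Isoforms of these pump subunits outside the 49 were looked up in a wider list of lysosomal genes. Atp6v0d2, an isoform of subunit d that osteoclasts and macrophages use, averaged 8.46 ± 2.47 CPM in fl/fl TGF-β1 and 21.2 ± 1.25 CPM in fl/fl untreated libraries (SD, n = 4 each). It fell by 1.33 ± 0.21 on the log2 scale (edgeR adjusted p = 0.000753), while Atp6v0d1 had -0.05 ± 0.10. Its FPKM in fl/fl untreated libraries was 8.35 ± 0.458, against 121 ± 4.42 FPKM for Atp6v0d1. Tcirg1, the a3 isoform, was chosen after its values were seen: it rose by 0.45 ± 0.12 in fl/fl (edgeR adjusted p = 0.0159). In FPKM, Tcirg1 averaged 279.6 ± 30.7 in fl/fl TGF-β1 and 213 ± 8.97 in fl/fl untreated libraries, where Atp6v0a1 averaged 63.6 ± 4.76 and 88.2 ± 0.758 (SD, n = 4 each). In KO, Tcirg1 had 0.26 ± 0.12 (edgeR adjusted p = 0.265) and Atp6v0d2 had -0.67 ± 0.20 (edgeR adjusted p = 0.066), or -0.77 ± 0.20 without KO untreated replicate 1 (edgeR adjusted p = 0.0138).

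The summed osteoclast markers, which include Atp6v0d2, were at 17.9 to 27.0 CPM in fl/fl TGF-β1 and 27.6 to 33.8 CPM in fl/fl untreated libraries, with all 8 listed genes found. In KO libraries they were at 21.2 to 27.8 CPM with TGF-β1 and 25.7 to 28.3 CPM untreated. In fl/fl the osteoclast sum averaged 20.9 CPM with TGF-β1 and 31.4 CPM untreated. Atp6v0d2 made up most of the untreated sum there and fell by more than the sum did. Values of the other osteoclast markers one by one are not given here. Summed macrophage markers were at 15745 to 20073 CPM in fl/fl TGF-β1 and 19723 to 21831 CPM in fl/fl untreated libraries, and at 16637 to 18882 CPM in KO TGF-β1 and 16376 to 23794 CPM in KO untreated libraries. Their part in the lysosomal results was not tested, and in bulk RNA fewer cells of a type and less RNA per cell cannot be told apart.

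The wider list had 90 lysosomal genes, of which 84 were tested. In fl/fl macrophages 7 rose and 5 fell (14.3%), and in KO macrophages 4 rose and 1 fell (5.95%), or 9 and 3 (14.3%) without KO untreated replicate 1. These shares stand beside 15.5%, 5.17% and 15.2% of all tested genes and are near them. Slc36a1, an exporter of amino acids from the lysosome, rose in fl/fl by 1.08 ± 0.20 (edgeR adjusted p = 0.0018), and in KO by 1.011 ± 0.11 with KO untreated replicate 1 left out (edgeR adjusted p = 1.44e-06). Gnptab, the enzyme that begins the mannose 6-phosphate tag on hydrolases, rose by 0.66 ± 0.17 in KO (edgeR adjusted p = 0.0353) and 0.65 ± 0.17 in fl/fl (edgeR adjusted p = 0.0151). The sulfatase Galns rose in KO by 0.59 ± 0.16 (edgeR adjusted p = 0.0379). In fl/fl, besides Atp6v0d2, the peptide transporter Abcb9 fell by 1.13 ± 0.32 (edgeR adjusted p = 0.0221) and Cln8, a receptor that helps hydrolases leave the endoplasmic reticulum, fell by 0.67 ± 0.16 (edgeR adjusted p = 0.00913). In KO the sialomucin Cd164 fell by 0.65 ± 0.14 (edgeR adjusted p = 0.0206).

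Among 40 regulators of lysosomal genes, of which 39 were tested, 7 rose and 1 fell in fl/fl macrophages (20.5%), and 3 rose and 1 fell in KO (10.3%), or 6 and 2 (20.5%) without KO untreated replicate 1. Over all tested genes these shares were 15.5%, 5.17% and 15.2%. Bhlhe40, a repressor that binds E-boxes, averaged 70.4 ± 5.77 CPM in fl/fl TGF-β1 and 7.19 ± 1.54 CPM in fl/fl untreated libraries (SD, n = 4 each), a log2 fold change of 3.29 ± 0.58 (edgeR adjusted p = 0.002). In KO it had 1.81 ± 0.54 (edgeR adjusted p = 0.0692), or 3.25 ± 0.17 when KO untreated replicate 1 was left out (edgeR adjusted p = 2.54e-10). Its relative Bhlhe41 rose by 1.24 ± 0.29 in KO (edgeR adjusted p = 0.0272) and 1.32 ± 0.29 in fl/fl (edgeR adjusted p = 0.00612). Rptor, the scaffold of the mTORC1 kinase complex, rose by 0.96 ± 0.17 in fl/fl (edgeR adjusted p = 0.00167), and in KO by 0.90 ± 0.12 with KO untreated replicate 1 left out (edgeR adjusted p = 1.83e-05). Wipi1 and Vps18, which act in autophagy and in tethering to lysosomes, rose in KO by 0.50 ± 0.14 (edgeR adjusted p = 0.044) and 0.46 ± 0.12 (edgeR adjusted p = 0.0388). Tfec, the MiT family member found mainly in macrophages, averaged 23.6 ± 4.97 CPM in fl/fl TGF-β1 and 66.8 ± 3.56 CPM in fl/fl untreated libraries (SD, n = 4 each). It fell by 1.06 ± 0.24 in KO (edgeR adjusted p = 0.0235) and by 1.497 ± 0.25 in fl/fl (edgeR adjusted p = 0.00108) on the log2 scale. The wider list and the regulators share Vps18.

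Between KO and fl/fl macrophages none of the 49 lysosomal genes differed past the threshold. Without TGF-β1 the count was 0 of 49, beside 0.0459% of all tested genes, and 0 of 49 without KO untreated replicate 1, beside 0.0994% of all tested genes. With TGF-β1 it was 0 of 49, beside 0.0382%, and 0 without that library, beside 0.0612%. At an unadjusted p under 0.05, edgeR gave 8 of 49 without and 3 of 49 with TGF-β1, beside 1421 and 734 of all 13080 tested genes, and DESeq2 called 2 and 1 at its adjusted threshold. The median log2 difference, KO minus fl/fl, was -0.07 without TGF-β1 and -0.03 with it, beside 0.03 and 0.01 over all tested genes. With 2 standard errors on either side, the difference stayed under 2-fold for 48 of the 49 without TGF-β1, all but Ctsh, and for 49 of 49 with it. The low count also holds for the tested genes as a whole, of which 6 were called without and 5 with TGF-β1.

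**Figure D5:**
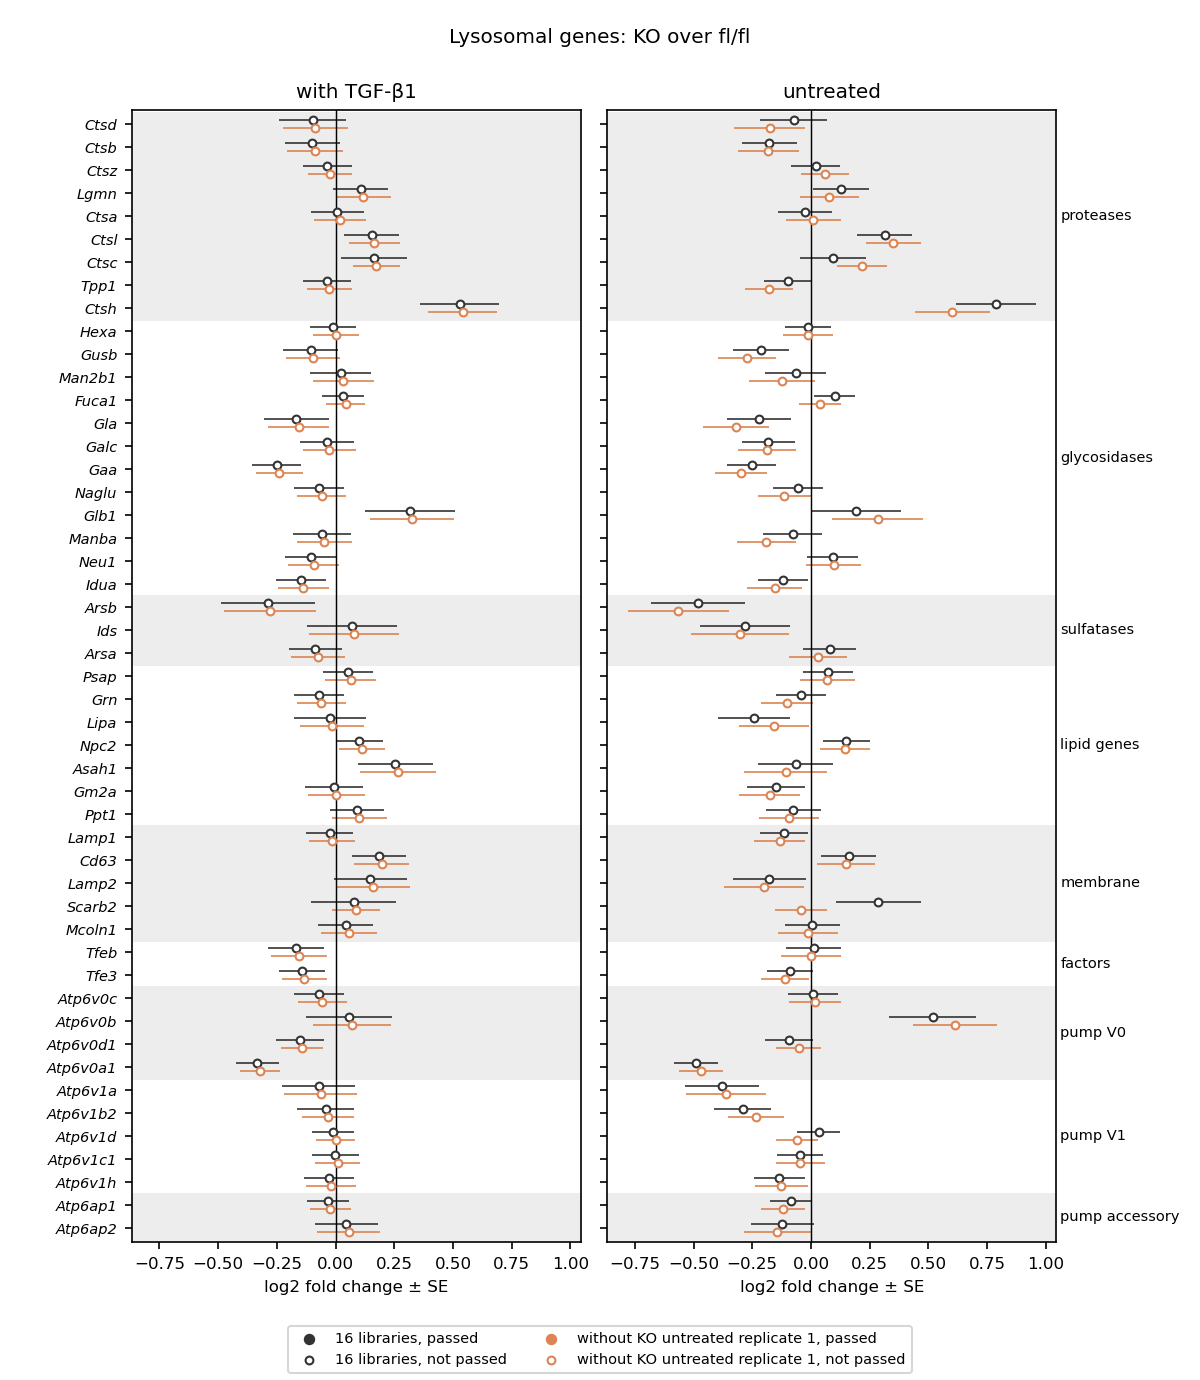
Log2 fold change ± SE, KO over fl/fl, of the 49 lysosomal genes with TGF-β1 (left) and untreated (right), from edgeR on 16 libraries (black) and without KO untreated replicate 1 (orange). No point is filled, since none passed the adjusted p of 0.05, and Ctsh and Atp6v0a1 lie on opposite sides of 0 in both panels.

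Ctsh and Atp6v0a1 were the 2 genes of the 49 whose KO and fl/fl libraries did not overlap in either treatment. Such overlap was not counted over all tested genes, so whether 2 of 49 is unusual is not known. Untreated Ctsh had 187, 94.1, 146 and 136 CPM in KO libraries, against 83.5, 78.6, 83.0 and 81.4 CPM in fl/fl libraries. The KO minus fl/fl difference was 0.79 ± 0.17 on the log2 scale (edgeR adjusted p = 0.159), and 0.53 ± 0.17 with TGF-β1 (edgeR adjusted p = 0.875). With KO untreated replicate 1 left out, the untreated difference was 0.60 ± 0.16 (edgeR adjusted p = 0.259). DESeq2 called Ctsh higher without TGF-β1. Untreated Atp6v0a1 had 237, 259, 273 and 276 CPM in KO libraries, against 367, 369, 363 and 370.0 CPM in fl/fl libraries. Its difference was -0.49 ± 0.09 (edgeR adjusted p = 0.0834) without and -0.33 ± 0.09 with TGF-β1 (edgeR adjusted p = 0.756), and DESeq2 called it lower in KO in both. With KO untreated replicate 1 left out, it was -0.47 ± 0.09 untreated (edgeR adjusted p = 0.0837). Since the KO and fl/fl libraries of a treatment come from different mice, genotype and any other difference between those mice cannot be told apart.

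Atp6v0b, a proton-carrying ring subunit of V0, had 105, 194, 143 and 123 CPM in KO untreated libraries, against 99.1, 89.5, 96.9 and 109 CPM in fl/fl untreated ones. The groups overlapped through KO replicate 1 and the highest KO value was replicate 2, for a difference of 0.52 ± 0.18 (edgeR adjusted p = 0.414), or 0.61 ± 0.18 with KO replicate 1 left out. Arsb had 128, 59.2, 132 and 130.4 CPM in KO untreated libraries, against 145, 148, 173 and 161 CPM in fl/fl untreated ones. KO replicate 2 was lowest by far, and the difference was -0.48 ± 0.20 (edgeR adjusted p = 0.423), or -0.57 ± 0.21 with KO replicate 1 left out. Scarb2, which rose with TGF-β1 in both genotypes, differed between genotypes by 0.29 ± 0.18 untreated and by -0.04 ± 0.11 without KO untreated replicate 1. With TGF-β1 its difference was 0.08 ± 0.18.

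The TGF-β1 responses of the 2 genotypes did not differ past the threshold for any lysosomal gene. The interaction contrast of edgeR called 0 of 49, beside 0% of all tested genes, and DESeq2 also called 0 of 49. At an unadjusted p under 0.05 edgeR gave 0 of 49, beside 275 of all 13080 tested genes. Without KO untreated replicate 1 edgeR called 0 of 49, beside 0% of all tested genes. At an unadjusted p under 0.05 that fit gave 1 of 49, beside 256 of all 13080 tested genes. The 1 gene was Atp6v0b at -0.54 ± 0.24 (edgeR adjusted p = 0.982). For Scarb2 the difference, KO minus fl/fl, was -0.21 ± 0.26 with 16 libraries and 0.13 ± 0.15 without that library. For Ctsh it was -0.26 ± 0.24 and -0.06 ± 0.22. The SE of this contrast had a median of 0.16, against a median size of 0.14 for the log2 response in fl/fl, so a difference in response of that size was not detectable with these libraries. Across the 49 genes the responses of the 2 genotypes, which share no library, had a Pearson correlation of 0.821 and a Spearman correlation of 0.701, and 35 of 49 had the same sign. Over all 13080 tested genes the Pearson correlation was 0.733 and 70.9% had the same sign. Genes are not independent replicates, and these values describe the libraries only.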

How the data were processed

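The submitters' processing notes name the builds mm10 and GRCm38.p6 and the tools Cufflinks 2.1.1, TopHat2 2.0.9 and HTSeq 0.6.1, without their roles. The labels give 16 libraries while their extraction protocol speaks of 8. The deposited read counts are raw whole numbers per gene, and the deposited FPKM equal count over gene length and library total (100% of values within 0.1%). Strand and multiple mapping in counting are not given in the sources used here. The members, gene lists and alternatives were chosen with earlier results of these data known. In R 4.3.3, edgeR 4.0.16 scaled the counts by TMM, filterByExpr kept 13080 genes, and a robust quasi-likelihood model with 4 group means was fitted. F-tests were adjusted by Benjamini-Hochberg over 13080 genes at 0.05, and SE was taken as the log2 fold change over the root of F. Group values are mean ± SD of CPM. DESeq2 1.42.0 and limma 3.58.1, on log2 of the deposited FPKM plus 1 or 0.1, were alternatives, as were no filter, a replicate block and leaving out each library. The model was tested on simulated data, with 200 of 13080 genes changed 2-fold in the fl/fl TGF-β1 libraries. It called 133 of the 200 (66.5%) in the right direction, with 5 false calls. No pair of libraries was identical. Same-numbered treated and untreated libraries had correlated deviations in fl/fl (0.123 to 0.181) and, less evenly, in KO (0.0754 to 0.239). Of 4 treated libraries, 3 in fl/fl and 2 in KO correlated best with the untreated library of their own number. Whether the numbers pair libraries is therefore not settled in either genotype. The main model has no block, and fits with a block are given as alternatives. Named are all members past the threshold (up to 8 per direction), Tfeb, Tfe3 and Mcoln1, the 5 highest and 3 lowest members by FPKM, and up to 3 called genes per direction of each further list. Other members given singly, such as Arsb, Atp6v0b and Lipa, were chosen after their values were seen. One called gene of the wider lysosomal list is not reported here by name. Promoter sequences are RefSeq's for GRCm38.p6.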

Additional observations from a re-analysis of the deposited data

Results flagged for a closer look

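In 11 of 196 groups of 4 libraries (49 genes in 4 groups), 1 library lay farther from the rest than Dixon's 95% criterion allows, and chance flags about 1 in 20 groups. Of the 11, 5 were low values of glycosidases and a sulfatase in the library labelled KO untreated replicate 2. Gaa had 144 CPM there, with the nearest KO untreated library at 168 CPM. Gusb had 497 CPM, with the nearest at 686 CPM. Man2b1 had 748 CPM, with the nearest at 1179 CPM, and Idua had 35.5 CPM, with the nearest at 43.5 CPM. Arsb had 59.2 CPM, with the nearest at 128 CPM. Over the 49 genes this library was lowest of its group for 31 and had a median log2 ratio of -0.24 to the mean of the other 3.

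The library labelled fl/fl TGF-β1 replicate 4 gave 3 of the 11. Lamp2 had 467 CPM there, with the nearest at 776 CPM. Ppt1 had 122 CPM, with the nearest at 157 CPM. Tfe3 was high, at 266 CPM, with the nearest at 207 CPM. This library was lowest of its group for 15 of the 49 genes and highest for 28, and it had the fewest detected genes of all libraries, 14915.

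The other 3 came from 3 libraries. Arsa had 49.1 CPM in KO TGF-β1 replicate 4, with the nearest at 53.2 CPM. Atp6v1c1 had 97.2 CPM in KO TGF-β1 replicate 1, with the nearest at 116 CPM. Asah1 was high in fl/fl untreated replicate 1, at 546 CPM, with the nearest at 469 CPM.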

How the results depend on the processing

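The TGF-β1 calls of Scarb2, Ctsh and Atp6v0a1 in fl/fl held under all 23 alternatives run, and no called direction of any of the 49 genes reversed. Arsa and Atp6v1d lost theirs under 6 alternatives each and Ctsc under 5. Leaving out 1 library, the count of lysosomal genes called ran from 3 (without fl/fl untreated replicate 1) to 8 of 49 in fl/fl, against 6 with all 16. In KO it ran from 0 to 6, against 2. It was 6 without KO untreated replicate 1 and 0 without fl/fl untreated replicate 2, any other KO untreated or any KO TGF-β1 library. For KO against fl/fl it ran from 0 to 1 untreated and was 0 with TGF-β1, and for the difference of the responses it was 0. Over all 13080 tested genes the same fits called 1379 to 2372 in fl/fl and 93 to 1989 in KO. They called 4 to 13 for KO against fl/fl untreated, 4 to 8 with TGF-β1 and 0 for the difference of the responses.

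In KO, DESeq2 called 4, and 7 were called without KO untreated replicate 1 and fl/fl TGF-β1 replicate 4 together, a pair chosen after seeing the data. For KO against fl/fl, DESeq2 called 2 untreated and 1 with TGF-β1. limma on log2(FPKM + 1) called 7 in fl/fl, of which 2 rose and 5 fell, against 4 and 2 in edgeR. Over all tested genes the KO response had 676 calls, against 1093 in DESeq2, 446 with no filter and 93 to 1989 with 1 library left out. KO against fl/fl had 6 untreated and 5 with TGF-β1, against 61 and 24 in DESeq2. With the replicate block, edgeR called 7 of 49 in fl/fl and 2 in KO, and 0 in the other 3 comparisons. With the replicate block within genotype, chosen after seeing the data, it called 9 in fl/fl and 3 in KO, adding Ctsd, Lipa and Atp6v1b2 in fl/fl. That fit compares KO with fl/fl through replicate 1 alone, so no KO against fl/fl value is given from it. For limma, the block fits and the fit without that pair of libraries, the shares of all tested genes called are not given here. Their counts show how the calls depend on the fit and are not a result about lysosomal genes.

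With 4 libraries a group and 16865591 to 23741079 counts a library, the median SE of a log2 fold change was 0.12, and the smallest called change with 16 libraries was 0.33.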
